A study of Homo sapiens with 12 samples.

Results

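A group of 9 dual-specificity phosphatase (DUSP) genes that encode MAP kinase phosphatases was followed by RNA-seq in HCT116 cells, an epithelial colon cancer cell line. The 9 genes were taken by symbol from the 26364 gene symbols counted in each library: *DUSP1*, *DUSP2*, *DUSP4*, *DUSP5*, *DUSP6*, *DUSP7*, *DUSP8*, *DUSP10* and *DUSP16*. HCT116 WT cells and a p65-deficient HCT116 line were each left without inhibitor or exposed for 2 h to camptothecin (CPT), which inhibits DNA topoisomerase 1 (TOP1), or to ICRF193, which inhibits topoisomerase 2 (TOP2), each at 5 µM. Each was then harvested without TNFα (0 h) or after 20 ng/ml TNFα had been present for 1 h. This gives 12 libraries, 1 for each combination, so no condition has a replicate. The sources do not say whether the 0 h libraries had the inhibitor for as long in total as the 1 h libraries. The p65-deficient line is 1 clone, which the study describes as made with CRISPR-Cas9, whereas the labels call it shRNA p65. p65 is the NF-κB subunit encoded by *RELA*.

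MAP kinases are switched on by phosphorylation of a threonine and a tyrosine, and the MAP kinase phosphatases remove both phosphates. Many of these genes are themselves transcribed in response to MAP kinase signalling, so that they form a negative feedback loop. *DUSP1*, *DUSP2*, *DUSP4* and *DUSP5* encode inducible nuclear enzymes, *DUSP6* and *DUSP7* encode cytoplasmic enzymes that act mainly on ERK, and *DUSP8*, *DUSP10* and *DUSP16* encode enzymes that act mainly on JNK and p38.

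Promoter sequences are shown for *DUSP1* and *DUSP8*, the genes whose windows held the cyclic AMP response element (CRE), TGACGTCA, to which CREB and ATF proteins bind. Windows ran from 250 bases before to 50 bases after the start site and came from RefSeq on GRCh38.p14. They were matched for 7 of the 9 genes, and for *DUSP10* there were 2 windows. No window of *DUSP4* or *DUSP5* was searched, so nothing is said here of motifs in their promoters. Capitals mark the CRE. In the *DUSP1* window (chr5:172771146-172771445, minus strand) it began at position -125 from the start site. In the *DUSP8* window (chr11:1572222-1572521, minus strand) it began at -118 and again at -74.
DUSP1: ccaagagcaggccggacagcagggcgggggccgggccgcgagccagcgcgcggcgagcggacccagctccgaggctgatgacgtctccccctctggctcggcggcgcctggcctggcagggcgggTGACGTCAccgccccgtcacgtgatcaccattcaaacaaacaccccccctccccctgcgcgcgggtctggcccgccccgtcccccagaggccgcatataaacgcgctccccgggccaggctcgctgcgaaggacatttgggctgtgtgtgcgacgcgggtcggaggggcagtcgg
DUSP8: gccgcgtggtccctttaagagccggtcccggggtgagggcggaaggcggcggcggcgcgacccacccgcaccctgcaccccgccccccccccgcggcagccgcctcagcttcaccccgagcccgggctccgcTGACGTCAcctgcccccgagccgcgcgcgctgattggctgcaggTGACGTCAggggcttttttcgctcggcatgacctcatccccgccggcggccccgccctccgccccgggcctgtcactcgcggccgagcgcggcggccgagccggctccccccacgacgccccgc
A CRE, which reads the same on both strands, was present in 649 of all 35116 promoter windows (1.85%). The AP-1 motif TGANTCA was in 7.71% of all windows and the CArG box bound by SRF was in 1.29%. Neither was found in the windows of the 7 genes. The NF-κB consensus was in 11.3% of all windows, and among the 7 genes it was found 1 time, in *DUSP7*. All motifs were searched on both strands, and among the 7 genes no match overlapped that of another motif. A match describes letters in a window and no more.

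The genes also differed in AU-rich sequence of the 3′ untranslated region, which marks many short-lived mRNAs. In GENCODE v29 transcripts on GRCh38, the pentamer ATTTA occurred 4 times in *DUSP1*, 3 times in *DUSP2*, 6 times in *DUSP4*, 1 time in *DUSP6*, 4 times in *DUSP8*, 3 times in *DUSP10* and 5 times in *DUSP16*. It was not found in *DUSP5* or *DUSP7*. Of 18652 genes, 68.2% held it at least 1 time. Per kilobase, *DUSP1* had 5.95 and *DUSP2* had 4.57, against a median of 1.52, and 93.9% and 88.5% of genes had a lower density. The longer TATTTAT, which overlaps ATTTA, was present in 31.5% of genes. It occurred 3 times in *DUSP1*, 1 time in *DUSP2*, 4 times in *DUSP4* and 2 times in *DUSP8*, and was not found in the other 5. The copies in *DUSP1* (chr5:172768647-172768667, chr5:172768379-172768399 and chr5:172768186-172768206), *DUSP2* (chr2:96143212-96143232) and *DUSP8* (chr11:1556378-1556398 and chr11:1554811-1554831), all on the minus strand, are shown with the motif in capitals.
DUSP1 copy 1: tggtcctTATTTATttaactt
DUSP1 copy 2: tatacctTATTTATttttgtg
DUSP1 copy 3: tgctgatTATTTATgacctga
DUSP2: cactttaTATTTATacagaac
DUSP8 copy 1: gatttttTATTTATttaagct
DUSP8 copy 2: gtttaagTATTTATtattatt

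Between 8101212 and 22051046 reads were counted per library. The 4 shallowest (8101212 to 8755001 reads) were all p65-deficient, namely ICRF193 at 0 h and all 3 at 1 h. Without inhibitor and with CPT, depth and TNFα therefore cannot be told apart in p65-deficient cells. *RELA* had 694 to 909 normalised counts in WT and 548 to 673 in p65-deficient libraries, so its mRNA was lower but present (log2 fold change -0.45 ± 0.08 SE, edgeR adjusted p = 9.2e-04). All 5 epithelial markers had reads in every library (summed CPM 3570 to 4740), the 3 leukocyte markers summed to 0 to 0.304, the 2 endothelial markers to 0.292 to 1.41, and the 3 fibroblast markers to 5.11 to 13.7. In bulk RNA, fewer cells with an mRNA and less of it per cell cannot be told apart.

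Levels were compared between genes in RPKM, which is per exonic length. *DUSP5*, which encodes a nuclear phosphatase that acts on ERK, was the most abundant of the 9 in the 8 libraries without CPT, with a median of 97.3 RPKM (77.2 to 173.0). It was followed by *DUSP4* at 38.3 RPKM (31.4 to 45.0) and *DUSP6* at 28.6 RPKM (20.4 to 40.1). *DUSP2* had a median of 18.4 RPKM, *DUSP1* 10.8, *DUSP7* 8.23, *DUSP16* 2.17, *DUSP8* 1.19 and *DUSP10* 0.958. *DUSP5* was above *DUSP4* in 12 of 12 libraries, *DUSP6* above *DUSP2* in 12 and *DUSP7* above *DUSP16* in 12. The other neighbours in this order crossed: *DUSP4* exceeded *DUSP6* in 8 of 12 libraries, *DUSP2* exceeded *DUSP1* in 8, *DUSP1* exceeded *DUSP7* in 9, *DUSP16* exceeded *DUSP8* in 9 and *DUSP8* exceeded *DUSP10* in 10.

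With CPT, the make-up of the group was different. The summed RPKM of the 9 genes was 177.0 to 288.0 (median 205.0) in the 8 libraries without CPT and 106.0 to 126.0 (median 118.0) in the 4 with CPT. *DUSP5* made up 43.5 to 60.1% of the sum without CPT and 16.1 to 21.6% with it. *DUSP1* made up 3.5 to 6.4% without CPT and 20.4 to 23.7% with it. *DUSP1*, *DUSP4*, *DUSP5* and *DUSP6* thus lay within 15.5 to 23.7% of the sum in each CPT library. None of these 4 shares was tested.

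**Figure D1:**
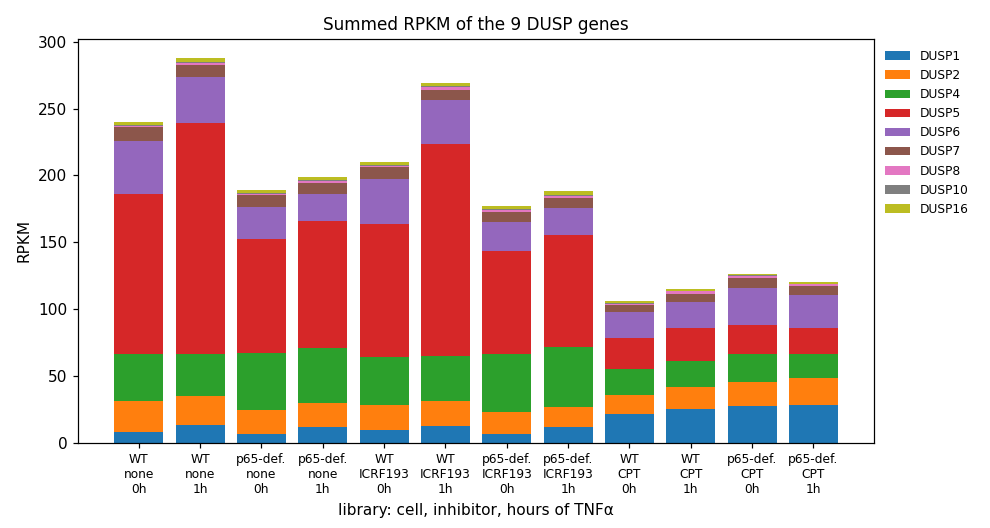
Summed RPKM of the 9 DUSP genes (y axis) in each of the 12 libraries (x axis: cell, inhibitor, hours of TNFα), with 1 stacked segment per gene. The 4 CPT libraries at the right reach 106.0 to 126.0 RPKM and the 8 others 177.0 to 288.0, mostly through the *DUSP5* segment.

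CPT was compared with no inhibitor in 4 pairs of libraries that share cell line and TNFα time and stand in for replicates. Normalised read counts are raw counts scaled by DESeq2 size factors, so that each value is relative to the other genes in its library. A gene was called when edgeR's quasi-likelihood test gave a Benjamini-Hochberg adjusted p under 0.05 over all genes tested. Of the 9 genes, all of which passed the filter on low counts, 1 rose (*DUSP1*), 5 fell (*DUSP4*, *DUSP5*, *DUSP7*, *DUSP10* and *DUSP16*) and 3 were not called. Of all 13993 genes tested, 23.2% rose and 25.1% fell. The median log2 fold change was -0.52 over the 9 genes and 0.02 over all genes.

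*DUSP1*, whose product dephosphorylates ERK, JNK and p38 in the nucleus, was the only one of the 9 genes called as higher with CPT over the 4 pairs. Without CPT it had 181.4 to 404.3 normalised counts (median 305.4) in 8 libraries. With CPT it had 623.8 in WT cells at 0 h, 742.1 in WT cells at 1 h, 799.8 in p65-deficient cells at 0 h and 822.5 in p65-deficient cells at 1 h. The groups did not overlap, and how many of all genes separate in this way was not counted. The rise was 2.57-fold (log2 fold change 1.36 ± 0.14 SE, edgeR adjusted p = 1.5e-05, higher in 4 of 4 pairs), and 96.5% of genes tested had a lower log2 fold change.

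*DUSP5* had the largest fall of the 9. It had 2695 to 6392 normalised counts (median 3465) in the 8 libraries without CPT. With CPT it had 825.6 and 882.2 in WT cells at 0 h and 1 h, and 792.0 and 698.5 in p65-deficient cells. These 4 libraries lay close together and below all others. The fall was 5.22-fold (log2 fold change -2.38 ± 0.11 SE, edgeR adjusted p = 3.1e-08, lower in 4 of 4 pairs), and only 0.5% of genes tested had a lower log2 fold change. *DUSP4*, another nuclear phosphatase, had 3358 to 4580 normalised counts (median 3955) without CPT. With CPT it had 2050 and 2120 in WT cells and 2195 and 1951 in p65-deficient cells at 0 h and 1 h. It fell 1.89-fold (log2 fold change -0.92 ± 0.07 SE, edgeR adjusted p = 1.1e-06), with no overlap between the groups. For *DUSP5* and *DUSP4* too, how many of all genes separate in this way was not counted.

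Of the genes for JNK and p38 phosphatases, *DUSP10* and *DUSP16* fell. *DUSP10* had at least 32.3 normalised counts in each library without CPT and at most 19.2 with it (log2 fold change -1.36 ± 0.20 SE, edgeR adjusted p = 2.2e-04). It rests on 11 to 22 reads per CPT library, and the intervals of its 4 pair ratios each span more than 1 log2 unit. *DUSP16* had 173.3 to 235.4 normalised counts without CPT and 134.6, 134.3, 85.8 and 83.8 with it, in WT cells at 0 h and 1 h and then in p65-deficient cells. Its log2 fold change was -0.91 ± 0.13 SE (edgeR adjusted p = 1.6e-04). *DUSP8* was not called, with 53.0 to 124.4 normalised counts without CPT and 76.4 to 116.0 with it (log2 fold change 0.23, interval -0.02 to 0.48, edgeR adjusted p = 0.16). Its pair ratios were above 0 in 4 of 4 pairs (0.03 to 0.44).

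In these libraries the CPT ratios of the cytoplasmic ERK phosphatase genes and of *DUSP2* differed between the cell lines. *DUSP6* had 1971 normalised counts in WT cells without inhibitor at 0 h and 936.9 with CPT, and 1682 and 972.6 at 1 h. In p65-deficient cells it had 1189 without inhibitor and 1363 with CPT at 0 h, and 973.7 and 1200 at 1 h. CPT libraries were thus lower in WT and higher in p65-deficient cells. *DUSP2*, which encodes a nuclear phosphatase, had 547.4 and 525.2 normalised counts in WT cells without inhibitor and 338.1 and 391.1 with CPT at 0 h and 1 h. In p65-deficient cells it had 423.0 and 414.6 without inhibitor and 440.1 and 475.0 with CPT. *DUSP7* had 484.4 and 427.8 normalised counts in WT cells without inhibitor and 241.7 and 275.8 with CPT. In p65-deficient cells it had 389.4 and 350.1 without inhibitor and 363.6 and 288.1 with CPT.

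The difference in the CPT effect between the cell lines was tested directly, as an interaction. The effect was more positive in p65-deficient than in WT cells for *DUSP6* (difference of log2 fold changes 1.15 ± 0.10 SE, edgeR adjusted p = 4.1e-06), *DUSP2* (0.65 ± 0.13 SE, edgeR adjusted p = 0.0079), *DUSP7* (0.63 ± 0.15 SE, edgeR adjusted p = 0.020) and *DUSP5* (0.53 ± 0.12 SE, edgeR adjusted p = 0.020). It was more negative for *DUSP4* (-0.33 ± 0.08 SE, edgeR adjusted p = 0.025). Thus 4 of 9 genes were called upward and 1 downward, against 2.39% and 2.38% of 14573 genes tested. *DUSP1* (0.59, edgeR adjusted p = 0.088) and *DUSP16* (-0.53, edgeR adjusted p = 0.11) were not called. With 1 pair left out *DUSP1* ranged from 0.16 to 0.95, and it was called without the p65-deficient pair at 1 h (0.95), without the WT pair at 0 h (0.82) and with no filter on low counts (0.60). *DUSP16* was called without the WT pair at 1 h (-0.66). Each cell line gives 2 pairs to this test. DESeq2 called 1 of the 5, *DUSP6*. Without the p65-deficient pair at 0 h, 2 of the 9 were called, and *DUSP4*, *DUSP5* and *DUSP7* were not. Without the p65-deficient pair at 1 h *DUSP4* was not called (-0.28), and without the WT pair at 0 h *DUSP7* was not (0.46).

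Within the 2 WT pairs the CPT log2 fold change was -0.95 for *DUSP6*, -0.58 for *DUSP2* and -0.84 for *DUSP7*, each called. Within the 2 p65-deficient pairs it was 0.22, 0.09 and -0.17, and *DUSP7* was not called. The 6 of 9 genes called in these pairs included *DUSP6* or *DUSP2*, as higher. The pair ratios of *DUSP6* were 0.20 (counting interval 0.10 to 0.29) and 0.30 (0.14 to 0.46). Those of *DUSP2* were 0.06 (-0.11 to 0.23) and 0.20 (-0.06 to 0.45). Over all 4 pairs, *DUSP6* (log2 fold change -0.38, edgeR adjusted p = 0.11) and *DUSP2* (-0.24, edgeR adjusted p = 0.12) missed the threshold and *DUSP7* passed it (-0.52 ± 0.13 SE, edgeR adjusted p = 0.0057). Without either p65-deficient pair, *DUSP6* and *DUSP2* were called as lower (-0.57 to -0.59 and -0.37). They were also called as lower over all 4 pairs with no filter on low counts (-0.40 and -0.27).

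**Figure D2:**
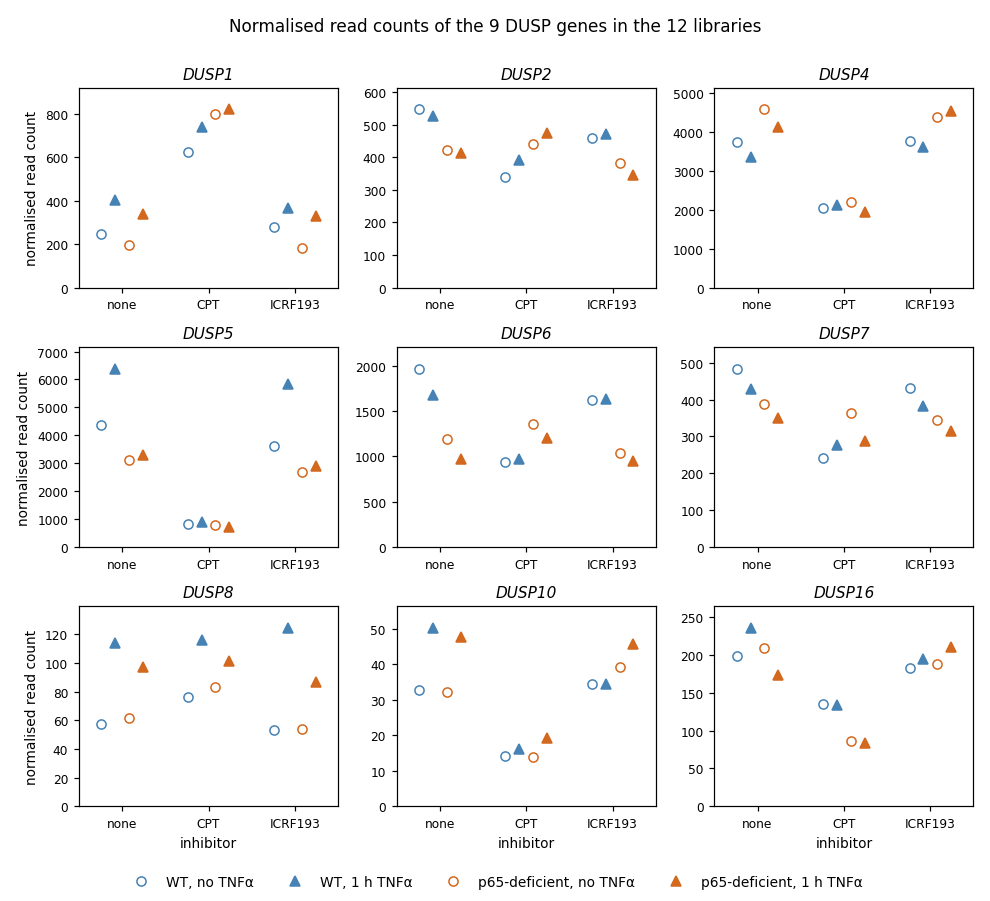
Normalised read counts (y axis, from 0, a separate scale per gene) of the 9 genes without inhibitor, with CPT and with ICRF193 (x axis). Each point is 1 library, blue for WT and orange for p65-deficient, open circles without and filled triangles with 1 h of TNFα. CPT points lie above all others for *DUSP1* and below all others for *DUSP4*, *DUSP5*, *DUSP10* and *DUSP16*. How many of all genes separate in this way was not counted.

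ICRF193 was used at the same dose and time as CPT, and its changes were smaller. In 4 pairs, 3 of the 9 genes fell, against 1.58% of 13631 genes tested that fell. *DUSP5* had 3627 normalised counts with ICRF193 against 4364 without in WT cells at 0 h, and 5836 against 6392 at 1 h. In p65-deficient cells it had 2695 against 3102 at 0 h and 2901 against 3304 at 1 h. It was lower in 4 of 4 pairs (log2 fold change -0.19 ± 0.03 SE, edgeR adjusted p = 1.0e-05). *DUSP2* (-0.20 ± 0.06 SE, edgeR adjusted p = 0.038) and *DUSP6* (-0.15 ± 0.04 SE, edgeR adjusted p = 0.031) were lower in 4 of 4 pairs as well. *DUSP7* had pair ratios of -0.18 to -0.16 and was not called (-0.16 ± 0.06 SE, edgeR adjusted p = 0.18). For the other 5 genes the log2 fold change was between -0.11 and 0.05. The falls were under 1.2-fold. DESeq2 called 1 gene, *DUSP5*. Without the WT pair at 0 h, *DUSP2* (-0.18) and *DUSP6* (-0.09) were not called, without the WT pair at 1 h they were not either (-0.22 and -0.19), and without the p65-deficient pair at 1 h *DUSP2* (-0.19) was not.

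The 2 inhibitors were also compared directly, CPT against ICRF193, in 4 pairs. *DUSP1* was higher with CPT (log2 fold change 1.34 ± 0.13 SE, edgeR adjusted p = 3.2e-06). *DUSP5* (-2.20 ± 0.11 SE, edgeR adjusted p = 7.3e-09), *DUSP10* (-1.29 ± 0.22 SE, edgeR adjusted p = 3.0e-04), *DUSP4* (-0.98 ± 0.07 SE, edgeR adjusted p = 9.2e-08), *DUSP16* (-0.81 ± 0.14 SE, edgeR adjusted p = 5.0e-04) and *DUSP7* (-0.38 ± 0.13 SE, edgeR adjusted p = 0.025) were lower. So 1 of 9 was called upward and 5 downward, against 20.9% and 25.5% of 13900 genes tested. *DUSP6* (interval -0.58 to 0.07), *DUSP2* (-0.30 to 0.18) and *DUSP8* (-0.05 to 0.55) were not called. *DUSP7* was not called with DESeq2 (-0.35), nor without the WT pair at 0 h (-0.20) or at 1 h (-0.33).

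**Figure D3:**
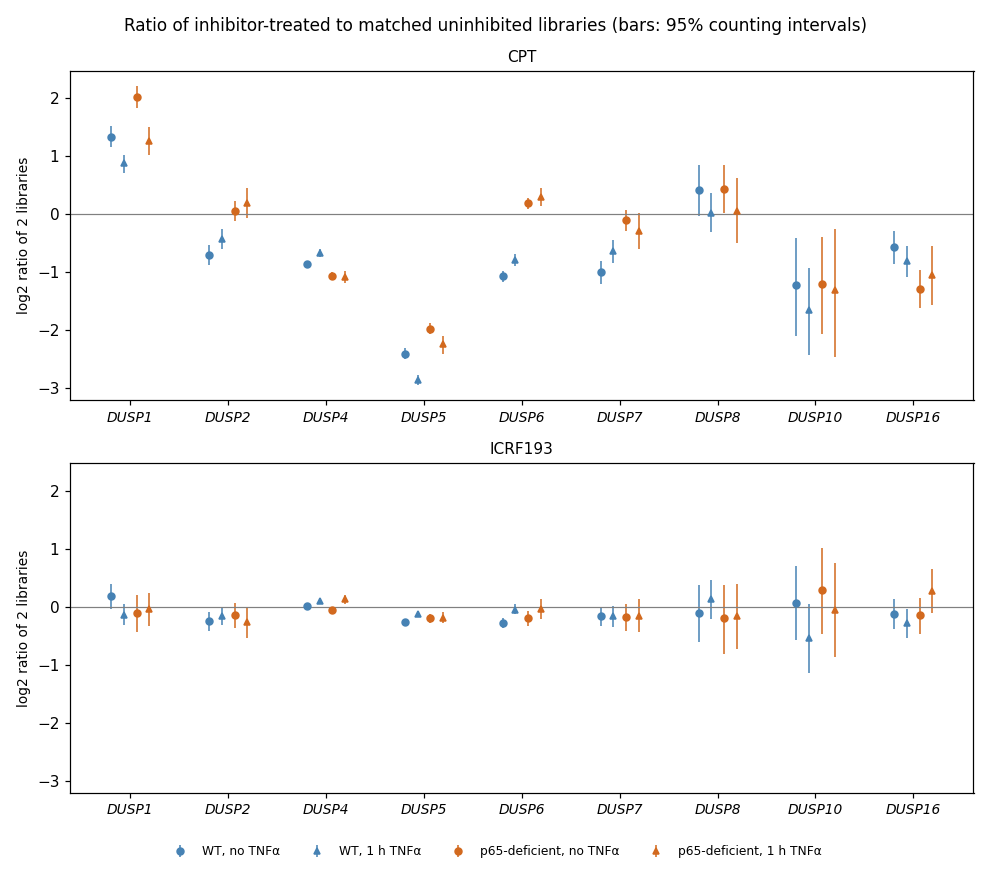
Log2 ratio of normalised counts (y axis) of each inhibitor-treated library to its matched library without inhibitor, for the 9 genes (x axis), CPT above and ICRF193 below on the same scale. Each point is 1 of 4 pairs and bars are exact 95% intervals for counting error alone. With CPT the ratios run from -2.86 (*DUSP5*) to 2.03 (*DUSP1*), and with ICRF193 from -0.54 to 0.29 (both *DUSP10*).

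TNFα was compared with no TNFα in 3 WT pairs, without inhibitor, with CPT and with ICRF193. Of the 9 genes, 3 rose: *DUSP8*, *DUSP5* and *DUSP1*. Of 13707 genes tested, 0.613% rose. *DUSP8*, which encodes a phosphatase of JNK and p38, had 57.1 normalised counts at 0 h and 113.6 at 1 h without inhibitor, 76.4 and 116.0 with CPT, and 53.0 and 124.4 with ICRF193. All 3 libraries at 1 h were above all 3 at 0 h, and how many of all genes separate in this way was not counted. The rise of *DUSP8* was 1.89-fold (log2 fold change 0.92 ± 0.13 SE, edgeR adjusted p = 1.9e-04) and rests on 60 to 159 reads per library. *DUSP5* had 4364 and 6392 normalised counts at 0 h and 1 h without inhibitor, 3627 and 5836 with ICRF193, and 825.6 and 882.2 with CPT. Its CPT pair was thus far lower and nearly level, and over the 3 pairs the log2 fold change was 0.48 ± 0.07 SE (edgeR adjusted p = 9.0e-05). *DUSP1* had 246.8 and 404.3 normalised counts without inhibitor, 279.2 and 367.6 with ICRF193, and 623.8 and 742.1 with CPT. It was higher in 3 of 3 pairs (log2 fold change 0.43 ± 0.08 SE, edgeR adjusted p = 0.0037). Without the pair that had no inhibitor *DUSP1* was not called (0.31), and DESeq2 called 1 of the 3, *DUSP8*. For the other 6 genes the log2 fold change lay between -0.08 and 0.32.

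In p65-deficient cells, edgeR called 0 of the 9 genes in 3 pairs, DESeq2 called 0, and 4 had an unadjusted edgeR p under 0.05 (*DUSP1*, *DUSP6*, *DUSP7* and *DUSP8*). Of 12858 genes tested, 0.498% were called in either direction. *DUSP1* had 196.4 normalised counts at 0 h and 341.6 at 1 h without inhibitor, 181.4 and 331.6 with ICRF193, and 799.8 and 822.5 with CPT (log2 fold change 0.42, interval 0.22 to 0.63, edgeR adjusted p = 0.056). Without the CPT pair it was called (0.84). *DUSP8* had 61.7 and 96.9 normalised counts without inhibitor, 53.6 and 86.9 with ICRF193, and 83.5 and 101.3 with CPT (log2 fold change 0.52, interval 0.20 to 0.84, edgeR adjusted p = 0.15). *DUSP5* had 3102 and 3304 normalised counts without inhibitor, 2695 and 2901 with ICRF193, and 792.0 and 698.5 with CPT (log2 fold change 0.04, interval -0.06 to 0.15, edgeR adjusted p = 0.77). Without the ICRF193 pair, *DUSP4* (-0.15) and *DUSP6* (-0.23) were called as lower.

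A direct test compared the TNFα effect of WT cells with that of p65-deficient cells over 6 pairs. edgeR called 0 of the 9 genes, DESeq2 called 0, and 1 had an unadjusted edgeR p under 0.05. Of 14459 genes tested, 0.228% were called. The 1 gene was *DUSP5*, with a TNFα effect that was 0.44 ± 0.10 SE higher in WT cells on the log2 scale (edgeR adjusted p = 0.089). Without the WT pair with CPT it was called (0.57). For *DUSP1* the difference was -0.00 with an interval of -0.31 to 0.31. For *DUSP8* it was 0.40 with an interval of -0.00 to 0.81.

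**Figure D4:**
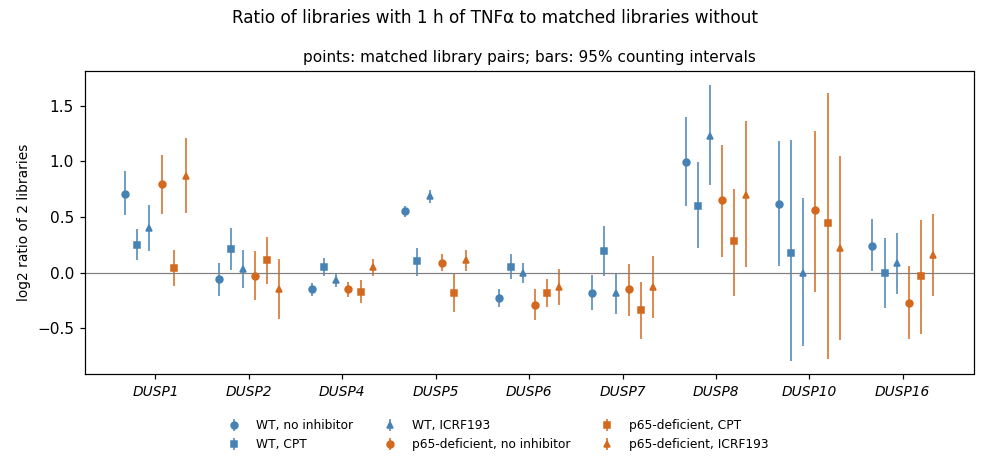
Log2 ratio of normalised counts (y axis) of each library with 1 h of TNFα to its matched library without, for the 9 genes (x axis). Each point is 1 of 6 pairs, blue for WT and orange for p65-deficient, with circles for no inhibitor, squares for CPT and triangles for ICRF193, and bars are exact 95% intervals for counting error alone. *DUSP8* lies above 0 in 6 of 6 pairs, from 0.28 to 1.23, and *DUSP5* reaches 0.55 and 0.69 only in WT cells without CPT.

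Whether the TNFα effect differed with CPT was tested over the same 6 pairs, with CPT against no inhibitor and ICRF193 together. Of the 9 genes 1 was called, *DUSP5*, downward, against 0.102% of 14766 genes tested. Its TNFα effect was 0.42 lower with CPT on the log2 scale (-0.42 ± 0.08 SE, edgeR adjusted p = 0.033). In WT cells its pair ratio was 0.10 (interval -0.03 to 0.22) with CPT, 0.55 (0.50 to 0.60) without inhibitor and 0.69 (0.63 to 0.74) with ICRF193. In p65-deficient cells the ratios were -0.18, 0.09 and 0.11 in the same order. The call was lost when any 1 of 5 of the 6 pairs was left out, namely the 3 WT pairs (-0.28 to -0.44) and the p65-deficient pairs without inhibitor or with ICRF193 (both -0.43), and with DESeq2 (-0.41). *DUSP1* had pair ratios of 0.25 and 0.04 with CPT and of 0.40 to 0.87 without it, and was not called (-0.52, interval -0.75 to -0.28, edgeR adjusted p = 0.18). Without the WT pair with CPT it was called (-0.79).

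The p65-deficient clone was compared with WT cells in 6 pairs. Of the 9 genes 1 was called upward and 1 downward, against 15.2% and 16.9% of 13730 genes tested. *DUSP5* was 1.47-fold lower in the clone (log2 fold change -0.56 ± 0.09 SE, edgeR adjusted p = 4.8e-04, lower in 6 of 6 pairs, with ratios from -1.01 to -0.06). *DUSP4* was 1.15-fold higher (0.20 ± 0.05 SE, edgeR adjusted p = 0.012, higher in 5 of 6 pairs). *DUSP6* was not called (-0.34, interval -0.64 to -0.05, edgeR adjusted p = 0.095). Its 4 pairs without CPT had ratios of -0.79 to -0.65 and its 2 CPT pairs 0.30 and 0.54. Without the CPT pair at 0 h *DUSP6* was called (-0.53), as 1 of 5 genes, and without that at 1 h likewise (-0.47). *DUSP1*, *DUSP2* and *DUSP7* also had ratios below 0 in the pairs without CPT (-0.62 to -0.15, -0.45 to -0.27 and -0.33 to -0.28). Their ratios in the CPT pairs were above 0 (0.15 to 0.36, 0.28 to 0.38 and 0.06 to 0.59). None of these genes was called over the 6 pairs. *DUSP4* was not called without the ICRF193 pair at 1 h (0.17). A difference between 1 clone and the WT line and a difference made by p65 cannot be told apart.

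Other genes of the pathway were counted in fixed lists, chosen with earlier results of these data known. The counts for CPT are to be read against the 23.2% of all genes tested that rose and the 25.1% that fell. Of 14 genes for other ERK feedback regulators and outputs, 8 fell and 1 rose with CPT (median log2 fold change -0.62). *PHLDA1* (-1.72 ± 0.09 SE, edgeR adjusted p = 6.1e-08) and *SPRY1* (-1.12 ± 0.23 SE, edgeR adjusted p = 0.0023), an inhibitor of receptor tyrosine kinase signalling, fell the most of that list, and *SPRED3* rose (1.64 ± 0.20 SE, edgeR adjusted p = 4.5e-05). Of 13 genes listed by a RAF or MAP3K symbol, 7 fell, and the list median was -0.26. Among them were *MAP3K14* (-3.19 ± 0.19 SE) and *MAP3K1* (-1.18 ± 0.09 SE). Of 7 MAP kinase kinase genes, 6 were tested, and *MAP2K2* rose (0.17) and *MAP2K4* fell (-0.27). Of 14 MAP kinase genes, 13 were tested, 6 rose and 2 fell, with none of these called changes above 0.35 in size (median 0.13). Of 11 other dual-specificity phosphatase genes, 2 rose, among them *DUSP28* (0.76), and 3 fell, among them *DUSP14* (-0.73), with a median of 0.01. Of 8 genes for AU-rich element binding proteins, 2 rose and 2 fell, and *ZFP36L1*, which promotes decay of such mRNAs, had the largest called change (-0.84 ± 0.07 SE, edgeR adjusted p = 2.5e-06).

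With TNFα in WT cells, all called genes on these lists rose, and their counts are to be read against the 0.613% of all genes tested that rose. *IER3* (log2 fold change 0.81 ± 0.07 SE, edgeR adjusted p = 1.2e-07) and *EPHA2* (0.19 ± 0.04 SE, edgeR adjusted p = 0.027) rose among 14 ERK feedback and output genes, and DESeq2 called 1 of them, *IER3*. *MAP3K8*, which encodes a kinase that activates MAP kinase kinases, rose (1.10 ± 0.20 SE, edgeR adjusted p = 0.0042) but was not called with DESeq2. *ZFP36* (0.97 ± 0.13 SE, edgeR adjusted p = 5.8e-05) and *ZFP36L1* (0.25 ± 0.06 SE, edgeR adjusted p = 0.033) rose among 8 AU-rich element binding protein genes, of which DESeq2 called 0. In the test of the CPT effect between cell lines, 4 of 14 ERK feedback and output genes were more positive in p65-deficient cells, *IER3* (0.82) and *SPRY4* (0.75) among them, and *PHLDA1* was more negative (-0.46), against 2.39% and 2.38% of all genes tested. *DUSP14* (0.71 ± 0.11 SE), *MAP2K3* (0.63 ± 0.09 SE) and *ZFP36* (1.46 ± 0.24 SE) were also more positive there. DESeq2 did not call *IER3* or *ZFP36* in that test. With ICRF193, 3 of the 14 ERK feedback and output genes fell, *SPRY4* (-0.27) and *PHLDA1* (-0.19) among them, against 1.58% of all genes tested.

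The genes whose pattern was most like each member were taken by Pearson's r of log2(CPM + 1) over the 12 libraries, among 10222 genes with a mean of at least 100 reads. These correlations have no test, and the 12 libraries share the CPT split and differ in depth. For *DUSP1* they were *RPS15A* (r = 0.977), *MYEOV2* (0.975) and *NDUFA1* (0.952). For *DUSP5* they were *XBP1* (0.992), *ZNF263* (0.988) and *PARD6B* (0.988). For *DUSP4* they were *TICRR* (0.991), *FADD* (0.99) and *TRIM32* (0.99). *DUSP6* was most like *SRF* (0.943) and *FAM46B* (0.943). For *DUSP8*, which has few reads, they were *JUN* (0.880), *SLC2A6* (0.818) and *KDM6B* (0.787). *DUSP16* was most like *TSTD2* (0.978), *DUSP10* most like *ZNF121* (0.965), *DUSP7* most like *C8orf58* (0.95) and *DUSP2* most like *CD2BP2* (0.905).

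In the hg19 annotation of the files the genes differ in genomic span. *DUSP2* (chr2:96808908-96811179) spans 2.3 kb and *DUSP1* (chr5:172195093-172198203) 3.1 kb, and 4.9% and 7.3% of the 12488 genes with a mean of at least 20 reads are shorter. *DUSP6* (chr12:89741602-89746636) spans 5.0 kb, *DUSP7* (chr3:52082937-52090461) 7.5 kb, *DUSP5* (chr10:112257625-112271302) 13.7 kb, *DUSP4* (chr8:29190579-29208267) 17.7 kb and *DUSP8* (chr11:1575281-1593150) 17.9 kb. *DUSP10* (chr1:221874762-221915518) spans 40.8 kb and *DUSP16* (chr12:12626216-12715448) 89.2 kb, against a median of 26.7 kb. *DUSP5* alone is on the plus strand, and no other counted gene overlaps an exon of any of the 9. Across the 9 genes, Spearman's rho between span and the CPT log2 fold change was -0.52, and across 13838 genes tested it was -0.32. Genes are not independent replicates, and no test was made. *DUSP10* and *DUSP16*, with spans above the median, fell with CPT. *DUSP5*, with the largest fall, had a span below the median, and *DUSP8*, with nearly the span of *DUSP4*, was not called. Whether span bears on the CPT change was not tested.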

How the data were processed

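RNA-seq of 12 libraries of HCT116 WT cells and the p65-deficient clone was used, 1 per combination of cell line, inhibitor and TNFα. Libraries were stranded total RNA. The deposited counts are raw. Per the file headers, the authors counted reads on the exons of hg19 genes with featureCounts 1.5.0 and no strand option, and their notes list Trimmomatic, STAR and deepTools.

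Counts were analysed as deposited. Tests used edgeR 4.0.16 (TMM, quasi-likelihood test, edgeR's expression filter, the pair as a block, Benjamini-Hochberg over all genes tested, threshold 0.05). The study's methods name DESeq2, which was an alternative (1.42.0), because edgeR's test is the main test for counts here. Pairs differ in cell line, inhibitor or TNFα and stand in for replicates. The p-values therefore rest on the spread between these pairs, which edgeR moderates with that of the other genes. A response that differs between pairs is part of that spread. SEs were derived from the fold change and the F statistic, and 95% intervals of a log2 fold change come from the SE and the normal distribution. The CPT, ICRF193 and TNFα comparisons share control libraries. Ratios of 2 libraries used DESeq2 size factors with exact Clopper-Pearson 95% intervals for counting error only, treating reads as independent molecules. Alternatives were other scaling, no filter, DESeq2, no block, pairs left out and 1 cell line only. The edgeR code was tested on simulated counts with known changes.

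The 9 genes and all lists were chosen with earlier results of these data known. All 9 genes are named, with at most 2 risers and 2 fallers per list and comparison, and 3 most similar genes per member at most. Promoters came from RefSeq (GRCh38.p14) and transcripts from GENCODE v29 (GRCh38). Gene positions are hg19. Tables and plots used scipy 1.17.1, matplotlib 3.10.9, pandas 2.3.3 and numpy 2.4.6 under Python 3.11.15, and fits ran with limma 3.58.1 under R 4.3.3.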

Additional observations from a re-analysis of the deposited data

Results flagged for a closer look

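The following values stood out because the size of an effect differed between groups in a direct test (edgeR's quasi-likelihood test of the interaction, Benjamini-Hochberg adjusted p under 0.05). The log2 effect of CPT in p65-deficient cells minus that in WT cells was 1.15 for *DUSP6*, 0.65 for *DUSP2*, 0.63 for *DUSP7*, 0.53 for *DUSP5* and -0.33 for *DUSP4*. The log2 effect of TNFα with CPT minus that without was -0.42 for *DUSP5*. No group has 4 samples, so no library was compared with others of its own group. The cause of these differences was not tested.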

How the results depend on the processing

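All directions of changes called in the main fits were kept under every alternative tried for the CPT, ICRF193, TNFα, interaction and clone comparisons. For these, what changed was the number of the 9 genes called. With total counts 1 gene was called for ICRF193 against 3. With DESeq2 the counts were 1 for ICRF193, 1 for TNFα in WT cells against 3, 0 for TNFα with CPT minus without against 1, and 1 for the CPT effect between cell lines against 5. Without the pair block they were 0, 0, 0 and 3 in the same order, and 0 for the clone against WT, where 2 were called. With no filter on low counts 1 was called for TNFα in p65-deficient cells, 1 for the TNFα effect between cell lines and 2 for TNFα with CPT minus without. It also gave 8 for CPT, where *DUSP2* (-0.27) and *DUSP6* (-0.40) were added. Counts were then 7 for CPT against ICRF193 and 3 for the clone, each with *DUSP6* added (-0.26 and -0.35). For the CPT effect between cell lines 6 were called. With p65-deficient pairs only, 0 were called for ICRF193. With 1 pair left out, the counts ran from 6 to 8 for CPT, 1 to 3 for ICRF193, 5 to 7 for CPT against ICRF193, 2 to 3 for TNFα in WT cells, 0 to 2 in p65-deficient cells, 0 to 1 for its difference between cell lines, 0 to 1 for TNFα with CPT minus without, 2 to 6 for the CPT effect between cell lines and 1 to 5 for the clone. Signs that turned were those of values not called in the main fits. For CPT in p65-deficient pairs only they were *DUSP2* (0.09) and *DUSP6* (0.22), and the 6 genes called there included 1 of these. Both were called as lower in WT pairs only (-0.58 and -0.95). For ICRF193 in p65-deficient pairs it was *DUSP16* (0.03). For TNFα in p65-deficient cells it was *DUSP5* without 1 pair (-0.01 to 0.11). For the TNFα difference between cell lines it was *DUSP1*. That value was 0.01 with DESeq2 size factors or no filter, 0.00 without the block and -0.41 to 0.15 without 1 pair.

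Over all genes, calls for ICRF193 were 296, 83 with DESeq2 and 3 without the block, for TNFα in WT cells 88, 25 and 0, for TNFα in p65-deficient cells 64, 2 and 0, for its difference between cell lines 33, 10 and 0, for TNFα with CPT minus without 15, 5 and 1, for the CPT effect between cell lines 696, 148 and 399, and for the clone 2043 without the block against 4408. No filter gave 143, 132, 38 and 1096 for TNFα in p65-deficient cells, its difference, TNFα with CPT and the CPT effect between cell lines, and total counts gave 39 for the first. With 1 pair left out the calls ran from 148 to 322 for ICRF193, 60 to 372 and 14 to 581 for TNFα in WT and p65-deficient cells, 5 to 99 for its difference, 4 to 147 for TNFα with CPT and 277 to 1697 for the CPT effect between cell lines, and p65-deficient pairs only gave 89 for ICRF193. Of 180 ratios of 2 libraries, 102 had an interval that excluded 0. No paired analysis by replicate number was possible because each condition has 1 library. The causes of these changes were not tested, and *DUSP8* and *DUSP10*, with 159 reads or fewer, have the least precision.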
